A study of Homo sapiens with 4 samples.

Results

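Chromosome 18 carried more contact regions of the ribosomal RNA genes per Mb than any other chromosome without rDNA in each of 4 libraries of K562 cells, and most of their reads lay in a stretch of the long arm close to the centromere. The contacts were measured by 4C, a method that cuts and religates fixed chromatin and then sequences whatever became joined to a chosen viewpoint. The viewpoint was in the intergenic spacer of the rDNA, the first cut was made with EcoRI (GAATTC) and the second with FaeI (CATG). K562 is an established human line from chronic myelogenous leukemia that can be driven towards the erythroid lineage. Untreated cells gave 2 libraries, another 2 were made after 108 h in 50 µM hemin, and the question of the design was how the rDNA contacts differ between both states. Both groups are the same cell line, the labels name no other agent or allele, and the methods of the study name the 2 libraries of a group biological replicates.

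The regions described here are all stretches covered by reads on chromosome 18 whose middle lies at least 500 kb from either chromosome end (hg38), from position 500001 to 79873285. There were 2882 such regions of 50077 on chromosomes 1 to 22 and X in untreated replicate 1, 2857 of 49544 in untreated replicate 2, 2390 of 46632 in hemin replicate 1 and 2419 of 49264 in hemin replicate 2. Their reads numbered 480775 and 504690 in untreated replicates 1 and 2, and 295797 and 309263 in hemin replicates 1 and 2. The libraries had between 19405694 and 33698762 reads on these chromosomes, and the untreated libraries were the deeper ones. The reads are PCR products without molecular identifiers, so they are not independent molecules. Limits drawn from read counts below cover counting error only, and not the error of ligation or amplification. A region on chromosome 18 had a median length of 76 or 77 bases and a median of 20 to 23 reads, and 29.0% to 30.0% of the regions held more than 100 reads.

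Chromosome 18 is known as one of the gene-poor human chromosomes, and gene-poor chromatin tends to lie at the nuclear periphery or around the nucleolus, where the rDNA is transcribed. The rDNA arrays sit on the short arms of the 5 acrocentric chromosomes, which were left out of the shares below because contacts along the same chromosome are mixed with contacts between chromosomes there. The annotation bears out the label of the chromosome as gene-poor. It holds 266 protein-coding genes, 3.31 per Mb, which is the lowest of the 18 chromosomes without rDNA. The protein-coding starts are unevenly spread, and 25 of the 72 arm bins of 1 Mb hold at most 1 start per Mb (gene-poor below) and 28 hold at least 4 per Mb (gene-dense below). The remaining 8 bins, from 14 to 22 Mb, make up the pericentromere.

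The contact places with the most reads show what was captured. Overlapping regions of the 4 libraries were joined into contact places, and 5 of the 12 named ones are printed 5′ to 3′ on the plus strand of hg38, with the EcoRI site GAATTC and the FaeI site CATG in capitals. Place 1 (chr18:29947793-29947844) was the arm place with the most scaled reads and was read only after hemin. Place 2 (chr18:63229916-63230062), in an intron of BCL2, was the strongest place read only in untreated cells. Place 5 (chr18:24823833-24824086), in an intron of the lncRNA gene ENSG00000266573, had the most scaled reads among places with at least 10 reads in every library. Place 6 (chr18:17275706-17275900) and place 8 (chr18:16119903-16120079) lie in the pericentromere.
place 1: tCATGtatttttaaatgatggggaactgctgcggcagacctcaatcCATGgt
place 2: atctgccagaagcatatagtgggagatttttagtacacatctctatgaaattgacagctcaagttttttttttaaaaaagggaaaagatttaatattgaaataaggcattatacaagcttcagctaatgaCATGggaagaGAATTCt
place 5: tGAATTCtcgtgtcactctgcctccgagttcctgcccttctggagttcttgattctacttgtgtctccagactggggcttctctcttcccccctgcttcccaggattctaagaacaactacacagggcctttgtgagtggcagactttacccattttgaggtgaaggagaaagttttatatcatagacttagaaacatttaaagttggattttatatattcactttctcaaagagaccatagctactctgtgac
place 6: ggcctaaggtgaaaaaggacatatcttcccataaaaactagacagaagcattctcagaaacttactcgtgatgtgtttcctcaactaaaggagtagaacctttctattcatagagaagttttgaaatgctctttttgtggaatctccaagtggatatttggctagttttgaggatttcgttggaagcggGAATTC
place 8: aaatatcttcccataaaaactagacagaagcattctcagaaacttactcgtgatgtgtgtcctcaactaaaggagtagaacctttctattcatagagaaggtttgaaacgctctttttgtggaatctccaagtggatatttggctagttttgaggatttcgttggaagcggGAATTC

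Place 6 and place 8 had the same sequence at 173 of 177 bases when aligned without gaps from their 3′ ends, where both carry the EcoRI site. Place 8 was added to the printed sequences after its values were seen. Place 6 had 2, 0, 12416 and 13262 reads in untreated replicates 1 and 2 and hemin replicates 1 and 2, and place 8 had 2522, 2742, 0 and 0. The nearly identical pair thus took opposite sides of the comparison. The 31 bases around the middle of place 6 occur 495 times in hg38, all on chromosome 18, and those of place 8 occur 27 times, also all on chromosome 18. The 31 bases in the middle of places 1, 2 and 5 occur once in hg38. No filter on mapping quality is given in the methods of the study, and how reads were divided among such copies was not tested.

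The whole chromosome ranked first of 18 in regions per Mb in every library. The density was 36.3 and 36.0 regions per Mb in the untreated libraries and 30.1 and 30.5 after hemin. Chromosome 19 followed, with 32.8, 31.3, 22 and 25.1 regions per Mb. In reads per Mb chromosome 18 ranked second behind chromosome 20, with 6057, 6358, 3727 and 3896 reads per Mb. When only regions whose middle 31 bases occur once in hg38 were kept (one-copy regions), chromosome 18 ranked first in both measures in all 4 libraries. It then had 25, 24.4, 23.7 and 24.7 regions per Mb, and the share of its regions with more than 1 copy was 31.1% and 32.2% in untreated cells and 21.1% and 19% after hemin. No library of unselected genomic DNA was used here, and the number of copies of each segment of chromosome 18 in K562 was not tested.

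The share of chromosome 18 was higher in both untreated libraries than in either hemin library. It took 7.75% and 7.79% of the regions outside the acrocentric chromosomes in untreated cells and 6.62% and 6.35% after hemin, or 7.77% ± 0.0279 against 6.49% ± 0.192 (SD, n = 2 each). Of the reads it took 5.88% and 5.80% against 5.59% and 5.51%. The groups did not overlap in either measure. Over all chromosomes, the acrocentric ones included, the shares of reads were 1.55%, 1.51%, 1.54% and 1.53%, and the groups overlapped. With 2 libraries against 2 the two-sided exact permutation test cannot go below p = 0.333, which is the value it gave for both differences and for the 4 other group differences in shares and ratios below. P-values here measure only the spread between these libraries.

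Within the chromosome the 3 arm segments held the same order of density in all libraries (see the profile of regions along the chromosome). The bounds at 42 Mb, and at 24.8 and 26 Mb below, were chosen after the profile was seen, so the differences between the segments are a description and were given no test. The proximal long arm from 22 to 42 Mb had 71.0, 70.5, 62.2 and 63.6 regions per Mb in untreated replicates 1 and 2 and hemin replicates 1 and 2. The distal long arm from 42 Mb on had 10.2, 9.29, 11.2 and 11.4. The short arm was between them, with 27.0, 25.9, 25.3 and 29.2 regions per Mb. The proximal long arm thereby held 49.3% to 52.6% of the regions and 60.2% to 62.8% of the reads of the chromosome on 20.00 of 79.37 Mb.

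**Figure D1:**
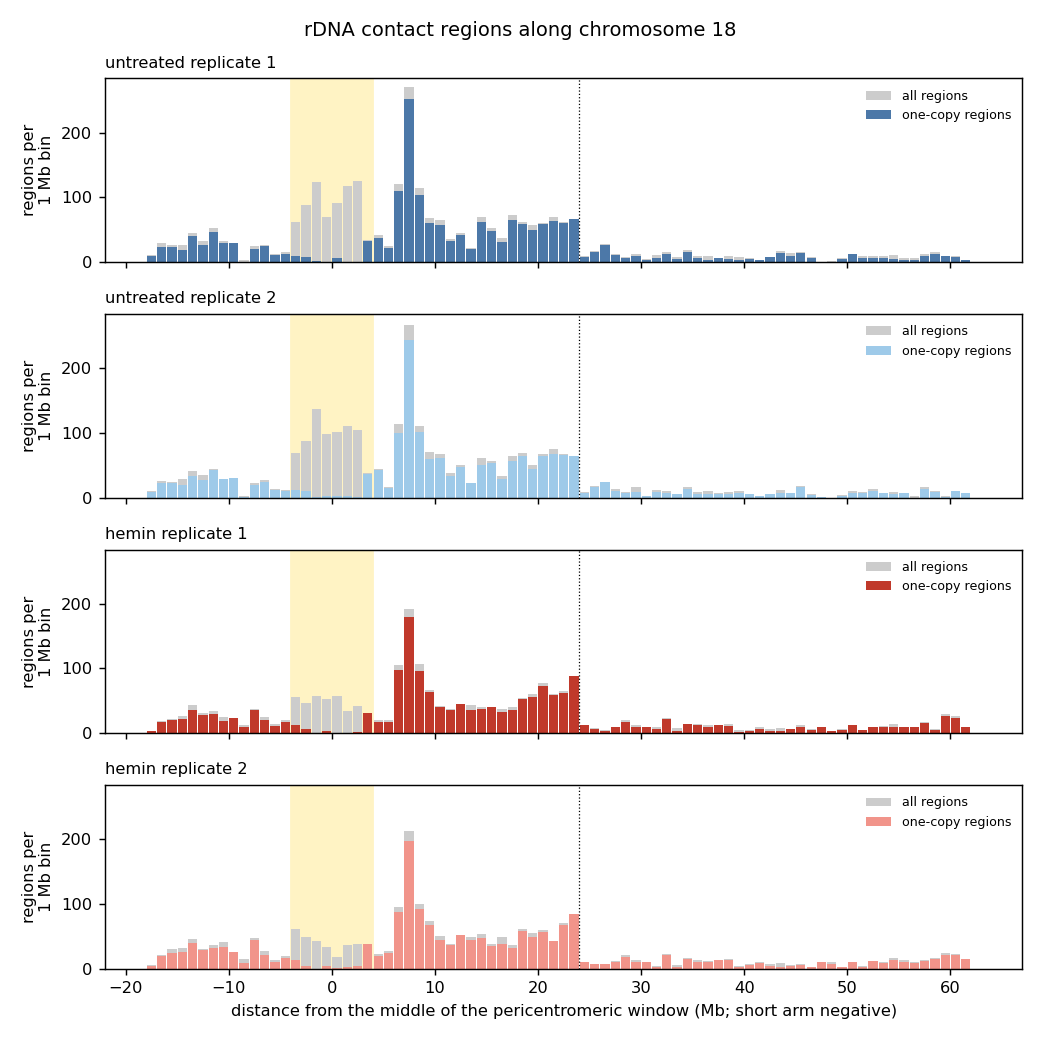
Number of regions in each 1 Mb bin (vertical axis) of chromosome 18 by library, against the distance in Mb from the middle of the pericentromeric window. Grey bars are all regions, coloured bars one-copy regions, the yellow band the pericentromere and the dotted line the step at 42 Mb; the first and last bins are cut by the 500 kb margin. In every library the coloured bars are tall between the band and the line and low beyond it, and nearly all bars inside the band are grey.

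The step at 42 Mb was narrow. The 100 kb before it held 10, 11, 19 and 16 regions, and the 100 kb after it held 2, 2, 0 and 0. Of the EcoRI sites in the proximal long arm, 13.5%, 13.3%, 12.4% and 12.3% had a region within 100 bases. In the distal long arm these were 1.82%, 1.70%, 2.11% and 2.20%, so the step was also present per cut site. The step was present in one-copy regions too, with 65.2, 64.4, 58.3 and 58.9 regions per Mb before it and 8.00, 7.37, 9.69 and 9.93 after it. In the study's repeat-filtered region files, with 1 file per group, the densities were 36.7 and 27.9 regions per Mb in the proximal and 4.15 and 4.81 in the distal long arm, for untreated and hemin respectively. Against all 1 Mb bins of the genome, 18, 18, 18 and 19 of the 20 proximal bins were at or above the 90th percentile, against 1, 0, 2 and 0 of the 38 distal bins.

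The peak of the chromosome was a plateau from 24.8 to 26 Mb. It held 333 and 324 regions in untreated cells and 252 and 267 after hemin, which is 278, 270, 210 and 222 regions per Mb. Its reads were 82831, 87599, 43475 and 45130, or 17.2%, 17.4%, 14.7% and 14.6% of the reads of the chromosome. The 100 kb just before it held 6, 6, 4 and 4 regions, and its first 100 kb held 34, 33, 25 and 20. The last 100 kb of the plateau held 32, 33, 17 and 22 regions, and the next 100 kb held 7, 6, 10 and 9. The plateau surrounds ZNF521, which encodes a zinc finger cofactor of hematopoietic and neural progenitors and is the only protein-coding gene with its start between 25 and 26 Mb. ZNF521 (chr18:25061924-25352190, minus strand) had the highest mean scaled read count of any gene on the chromosome, with 13328, 13971, 8478 and 8561 reads from 60, 60, 51 and 50 regions. The lncRNA gene ENSG00000266573 came second with 12772, 13797, 6398 and 6038 reads, and MIR924HG, a miRNA host gene, followed with 9114, 9765, 3429 and 3385.

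**Figure D2:**
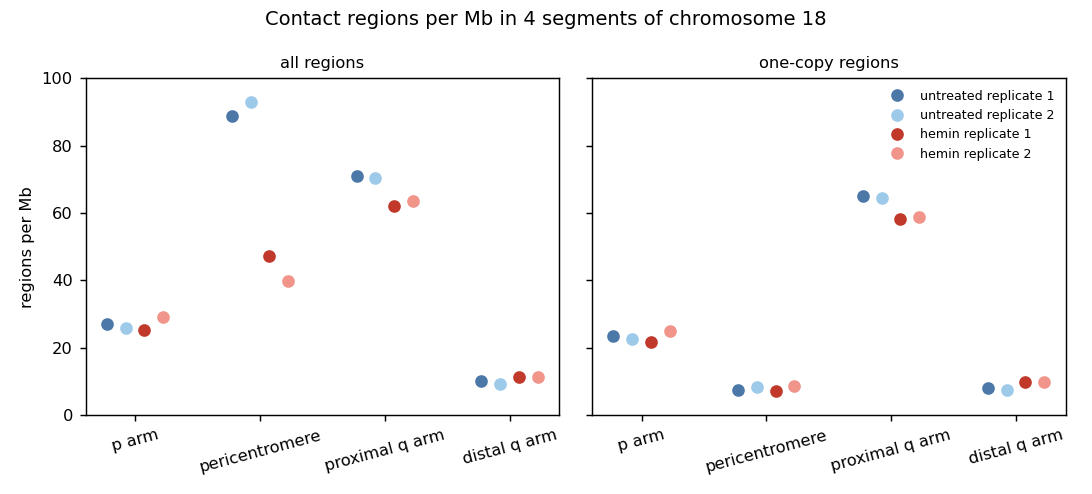
Regions per Mb (vertical axis) in the short arm, pericentromere, proximal long arm and distal long arm of chromosome 18, 1 point per library. All regions are on the left and one-copy regions on the right. The pericentromeric points fall from between 39.9 and 93.0 to between 7.25 and 8.62 when one-copy regions are kept. With all regions the pericentromere lies above the proximal long arm in the untreated libraries and below it after hemin. With one-copy regions the proximal long arm is the densest segment in every library.

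The pericentromere held more regions in untreated cells than after hemin, and this difference lay in sequences of many copies. Its share of the chromosome's regions was 24.6% and 26% in untreated cells and 15.8% and 13.2% after hemin, a difference of -10.8 percentage points (25.3% ± 0.994 against 14.5% ± 1.86, SD, n = 2 each). With regions of at least 10 reads it was -3.57 percentage points (9.41% against 5.84%), and with reads thinned to equal depth -8.46. The regions were shallow, with a median of 1 or 2 reads, and 38.2% to 52.6% of them held 1 read. Of the pericentromeric regions, 91.5%, 91.0%, 84.7% and 78.4% had middle sequences with more than 1 copy in hg38, against 6.35% to 8.72% in the proximal long arm. One-copy regions in the pericentromere numbered 60, 67, 58 and 69, and their share of one-copy regions was 3.02%, 3.46%, 3.08% and 3.52%, so the libraries of both groups overlapped. The pericentromere's share of reads ran the other way, with 7.24% and 7.48% in untreated cells and 8.50% and 8.08% after hemin. Place 6 alone held 12416 of the 25153 pericentromeric reads of hemin replicate 1 and 13262 of the 24997 of hemin replicate 2. In one-copy regions the share of reads was 2.24% and 2.20% against 2.09% and 2.05%. Replicates of both groups shared fewer regions here than in the proximal long arm. The other replicate met 58.2% and 55.5% of the untreated and 39.7% and 48.0% of the hemin regions of the pericentromere, against 88.4%, 88.5%, 81.8% and 79.8% in the proximal long arm. Place 7 (chr18:15236213-15236262), with 7 copies of its middle 31 bases in hg38, had 1158, 1259, 1747 and 0 reads, so the hemin libraries stood on both sides of the untreated ones.

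Gene-poor bins held more regions than gene-dense bins over both arms, and most of the excess lay in the single 1 Mb bin that contains ZNF521. Gene-poor bins had 40.0, 39.8, 37.4 and 37.8 regions per Mb and gene-dense bins 27.9, 27.0, 26.1 and 27.2, which gives ratios of 1.43, 1.47, 1.43 and 1.39. The ratio differed between untreated and hemin libraries by -0.0421 (1.45 ± 0.0277 against 1.41 ± 0.0315, SD, n = 2 each), which is near the spread between replicates. Without the bin from 25 to 26 Mb the ratios were 1.09, 1.12, 1.19 and 1.12. The classes are also unequally placed, since 10 of the 25 gene-poor bins but 7 of the 28 gene-dense bins lie in the proximal long arm. Within the proximal long arm the ratios were 1.15, 1.25, 1.25 and 1.22. Within the distal long arm, with 13 bins of each class, they were 0.982, 0.870, 0.947 and 0.922, so no library had more regions in its gene-poor bins there. The short arm had the highest ratios, 1.82, 1.61, 1.49 and 1.47, but only 2 gene-poor bins. Over the 72 arm bins Spearman's rho between coding starts and regions per Mb was -0.0865, -0.0632, -0.0895 and -0.0726, a description over bins that share each library's depth. Gene-poor bins also had more EcoRI sites (294 against 271 per Mb) and a lower GC content (37.3% against 41.8%), and counted per 1000 EcoRI sites the ratios were 1.32, 1.36, 1.32 and 1.27. The part of the GC content was not tested.

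**Figure D3:**
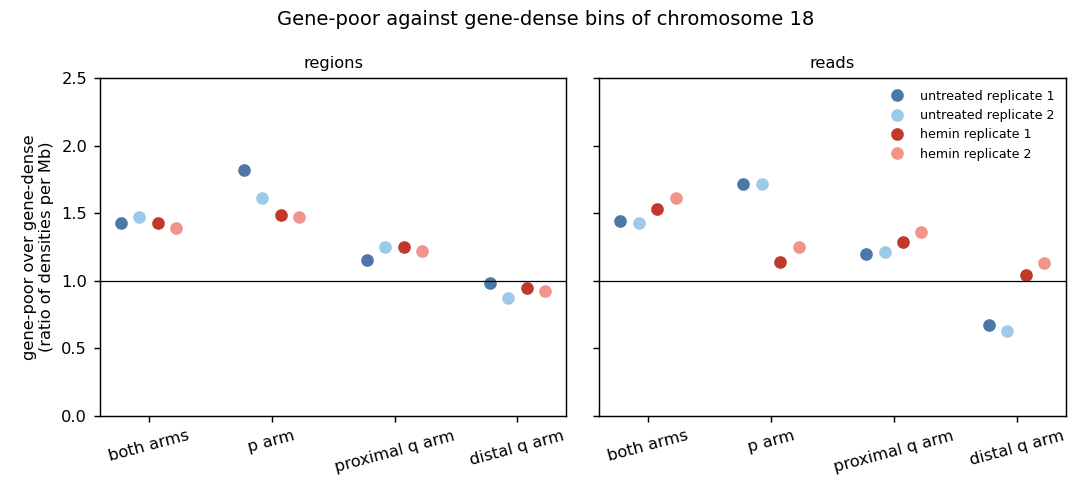
Ratio of the density in gene-poor bins to that in gene-dense bins (vertical axis), for regions on the left and reads on the right, over both arms and in each segment, 1 point per library. The line marks equal density. The distal long arm lies below the line for regions in all libraries, and for reads the untreated libraries (0.673 and 0.626) lie below it and the hemin libraries (1.04 and 1.13) above it.

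In reads the gene-poor to gene-dense ratio was 1.44 and 1.43 in untreated cells and 1.53 and 1.61 after hemin. Without the bin from 25 to 26 Mb it was 1.01 and 1.01 against 1.20 and 1.26. The segments differed in direction: the ratio was lower after hemin in the short arm (1.72 in both untreated libraries, at most 1.25 after hemin) and higher in the distal long arm (0.673 and 0.626 against 1.04 and 1.13). The same 2 classes on other chromosomes did not show the level seen on chromosome 18. Gene-poor bins elsewhere (660 bins on autosomes without rDNA) had medians of 9, 9, 10 and 11 regions per Mb against 28, 25, 19 and 22 on chromosome 18. Gene-dense bins elsewhere (1314 bins) had medians of 8, 9, 10 and 11 against 15, 15, 17 and 18.1. Both classes of chromosome 18 were thus above their counterparts by these medians, which were given no test.

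Most places were read in 1 group only, while the order of the arm segments was the same in both groups. The cause was not tested. Of the regions, 78.8% and 79.1% (untreated) and 75.1% and 73.8% (hemin) were met by a region of the other replicate. By contrast 14%, 14.3%, 16.6% and 16.2% were met by a region of any library of the other group. Regions of more than 100 reads gave 97.4% to 98.6% for the other replicate and 18.1% to 19.6% for the other group, so the low overlap between groups was also present among deep regions. Such deep regions of the other chromosomes gave 95.7% to 97.5% and 17.3% to 21.7%, so this separation is not particular to chromosome 18. Of the regions shared by both replicates, 84.0% to 84.4% were met by none of the other group on chromosome 18, against 80.5% to 82.7% on the other chromosomes. On the other chromosomes 17.1% to 17.7% of the regions were met by the other group. Over 80 bins of 1 Mb, Pearson's r of log2(regions + 1) was 0.968 between the untreated and 0.938 between the hemin libraries, and 0.772 to 0.843 between groups. In the distal long arm (38 bins) it was 0.819 and 0.733 within groups and 0.0209 to 0.164 between groups, and in the proximal long arm (20 bins) 0.790 to 0.844 between groups. In all, 5890 places were counted, of which 2971 had no read in either hemin library, 2471 none in either untreated library, and 448 had reads in both groups. Of the 448, 267 lay in the proximal long arm and 35 in the distal long arm. How the places of the other chromosomes divide in this way was not counted.

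The difference after hemin was tested per 1 Mb bin with edgeR's quasi-likelihood test over the whole genome, with Benjamini-Hochberg adjustment and a threshold of 0.05. Counting each region once, 26 of the 69 tested bins of chromosome 18 changed, 8 higher and 18 lower after hemin (37.7% called). Genome-wide 24.3% of the tested bins were called, 11.3% higher and 13.1% lower. On chromosome 18 11.6% were higher and 26.1% lower. The lower bins were 6 of the 8 pericentromeric bins, 8 of 20 in the proximal long arm, 1 of 14 in the short arm and 3 of 27 tested in the distal long arm. The higher bins were 5 in the distal long arm, 2 in the short arm and 1 in the proximal long arm. Some bins with few regions passed the count filter only through the group where they are high. The balance of higher and lower bins in the distal long arm is therefore a description. When the total outside the acrocentric chromosomes set the scale, 9 were higher and 13 lower, and the median log2 change of all bins moved from 0.008 to 0.179. Without either hemin library no bin was called on chromosome 18, with 25 (without replicate 1) and 18 (without replicate 2) at an unadjusted p under 0.05, and DESeq2 called 7 lower and 0 higher.

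The bin with the most regions, from 25 to 26 Mb, had 270, 266, 192 and 212 regions and fell by 0.59 on the log2 scale (SE 0.07, edgeR adjusted p = 2.42e-04). The bins from 19 to 20 Mb and 20 to 21 Mb in the pericentromere had log2 changes of -1.83 and -1.69, with 117, 110, 35 and 37 and with 125, 104, 42 and 38 regions. The strongest fall was in the gene-poor bin from 44 to 45 Mb, with 28, 25, 5 and 7 regions (log2 change -2.30, SE 0.23, edgeR adjusted p = 8.91e-05). This bin holds SETBP1, which encodes a SET-binding protein mutated in some myeloid malignancies. The strongest rise was in the gene-poor bin from 65 to 66 Mb, with 1, 1, 10 and 10 regions (log2 change 3.0, SE 0.33, edgeR adjusted p = 0.00140). It passed the count filter through the hemin libraries alone, and the bin from 44 to 45 Mb through the untreated ones. The calls of both extremes in regions thus support nothing. Among the gene-dense bins with the most coding genes, the bin from 63 to 64 Mb (15 coding genes, the SERPINB cluster among them) had 16, 18, 12 and 7 regions and fell by 1.01. The bin from 31 to 32 Mb (11 coding genes, the desmosomal cadherins among them) had 22, 23, 43 and 49 regions and rose by 0.85. The calls of the bins from 63 to 64, 31 to 32 and 65 to 66 Mb were also lost without either untreated library. The bin from 12 to 13 Mb (11 coding genes) had 12, 14, 14 and 14 regions and a log2 change of -0.07 (edgeR adjusted p = 0.915).

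**Figure D4:**
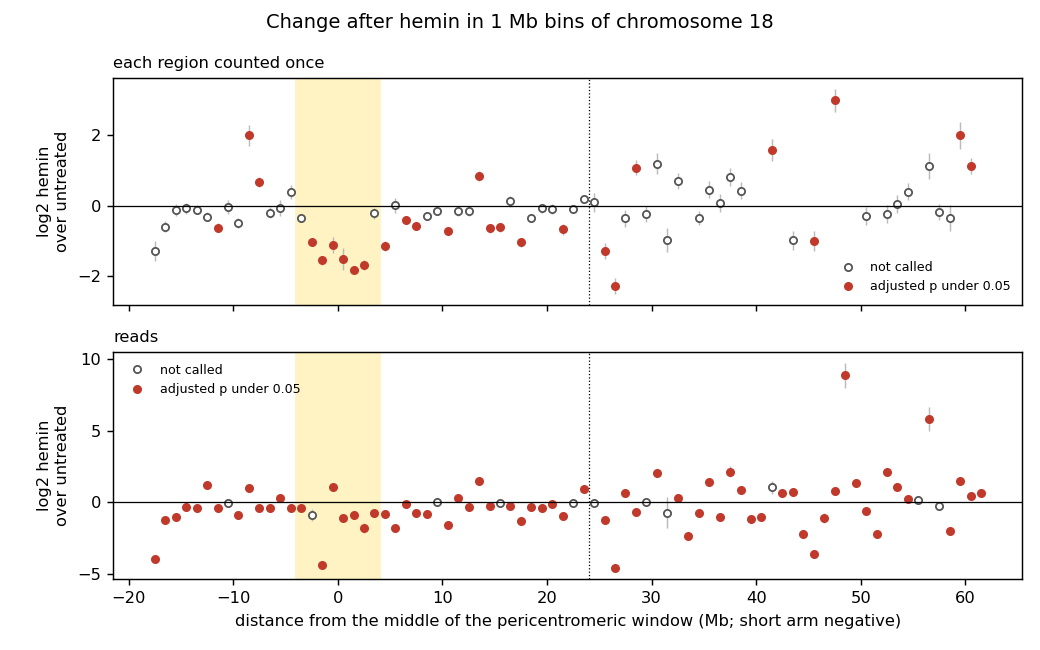
Log2 of hemin over untreated (vertical axis, bars are 1 SE) for each tested 1 Mb bin against the distance in Mb from the middle of the pericentromeric window. Regions counted once are above and reads below, and filled points passed an edgeR adjusted p of 0.05. The pericentromere (yellow band) and the proximal long arm up to the dotted line lie mostly below 0, and the distal long arm scatters on both sides.

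In reads, 69 of the 80 bins changed, 25 higher and 44 lower after hemin. Genome-wide 81.2% of the bins were called, 40.0% higher and 41.2% lower, so a call in reads is common and the 86.2% on chromosome 18 is near this background. The shares on chromosome 18 were 31.2% higher and 55.0% lower. This split depends on the scale: with total reads outside the acrocentric chromosomes 34 bins were higher and 33 lower, and the median log2 change of all bins moved from -0.028 to 0.251, that of chromosome 18 from -0.340 to -0.063. In the proximal long arm 14 of 20 bins were lower and 3 higher, and in the distal long arm 18 of 38 were higher and 14 lower. By gene density, 8 of the 28 gene-dense bins were higher and 17 lower, and 10 of the 25 gene-poor bins were higher and 11 lower. The largest fall in reads was again from 44 to 45 Mb, with 5270, 5499, 166 and 188 reads (log2 change -4.57, SE 0.06). The largest rise among the called bins was from 66 to 67 Mb, a gene-poor bin with 4, 0, 611 and 965 reads (log2 change 8.86, SE 0.89). This bin passed the count filter through the hemin libraries alone, so its rise is a description.

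**Figure D5:**
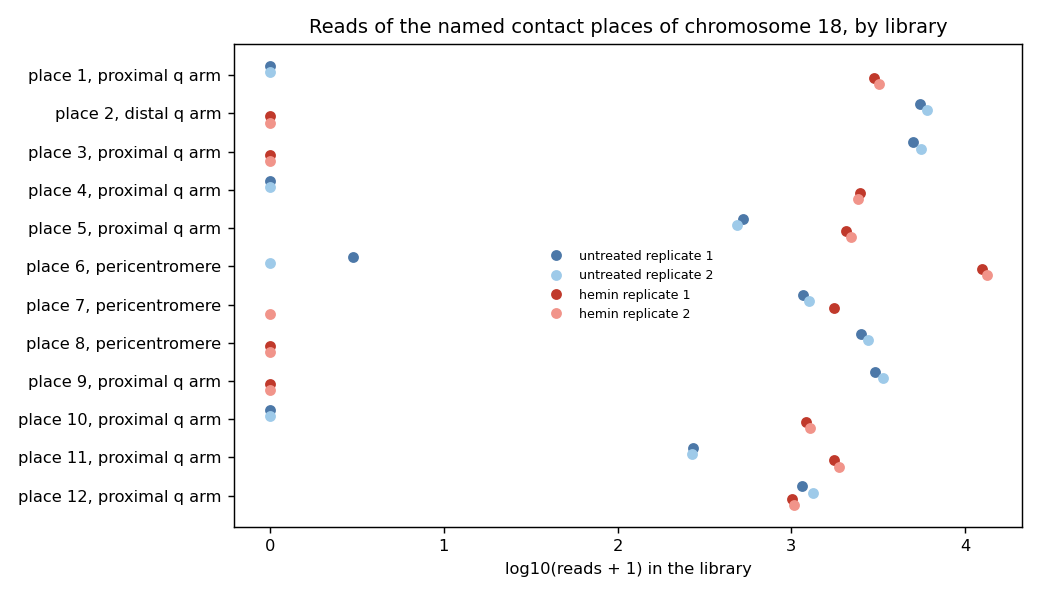
Reads of the 12 named contact places on a log10(reads + 1) axis, 1 point per library, with the segment of each place. Places 1, 4 and 10 have no untreated reads and places 2, 3, 8 and 9 no hemin reads; places 5, 11 and 12, all in the plateau from 24.8 to 26 Mb, have reads in every library.

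The same test was applied to single contact places. Of 2538 places tested on chromosome 18, 1142 were higher and 1313 lower after hemin (96.7%). Genome-wide 95.2% were called, 49.4% higher and 45.8% lower. A place read in 1 group only passes the count filter through that group and had to differ, so these counts support nothing. Among the 202 tested places with reads in all 4 libraries 157 were called (77.7%), against 72.8% of 3753 such places genome-wide, which is near this background. Place 1 had 0, 0, 2985 and 3193 reads, and was higher after hemin by at least 1955-fold, taking 3 reads per library as the limit that a count of 0 allows. It lies between genes, 1041.5 kb from DSC3, the nearest protein-coding gene. Place 2, in the BCL2 intron, had 5515, 6057, 0 and 0 reads and was at least 1014-fold lower after hemin on the same limit. Place 3 (chr18:26008697-26008911), 7.3 kb from SS18, had 4998, 5577, 0 and 0 reads. Place 4 (chr18:33623056-33623167), in an intron of ASXL3, had 0, 0, 2488 and 2429 reads. Place 9 (chr18:39820869-39821254), 2134.0 kb from PIK3C3, had 3030, 3352, 0 and 0 reads. Place 10 (chr18:24980374-24980450), in introns of the lncRNA genes ENSG00000266573 and LINC01894, had 0, 0, 1206 and 1270 reads. These places were chosen for having no read in 1 group or for the most reads, so their separation is a description.

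The 3 strongest places read in every library all lay in the plateau from 24.8 to 26 Mb. Place 5 had 525, 482, 2064 and 2209 reads and was higher after hemin (log2 change 3.01, SE 0.09, edgeR adjusted p = 4.65e-06). Place 11 (chr18:25838483-25838624) had 272, 268, 1751 and 1865 reads (log2 change 3.67, SE 0.07). Place 12 (chr18:25688002-25688199) had 1149, 1332, 1001 and 1029 reads, which after scaling for depth was a rise of 0.64 on the log2 scale (SE 0.08, edgeR adjusted p = 7.08e-04). Places 11 and 12 lie in the bin from 25 to 26 Mb, which as a whole had fewer regions after hemin.

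Reads were also summed per gene. Each region was widened by 2.5 kb and counted only where it met exactly 1 gene. Of the 1265 annotated genes of chromosome 18, 291 held reads in at least 1 library and 239 were tested. After hemin 101 were higher and 105 lower (42.3% and 43.9%). Genome-wide 86.5% of the tested genes were called, 46.1% higher and 40.4% lower, which is close to the 86.2% on chromosome 18. Of the tested genes 104 had no read in 1 of the groups and all 104 were called, as they passed the count filter through the other group and had to differ, so the counts of called genes here and in the lists below support nothing. Among the 112 tested genes with reads in all 4 libraries 91 were called (81.2%), against 79.1% of 2628 genome-wide. Regions that met more than 1 gene were left out. When every gene met was counted, 397 genes of chromosome 18 were tested. A gene's reads come mostly from 1 or a few places. A gene without reads here is one with no read in regions that met it alone, which is not absence of contact in the cells. Of the genes in the proximal long arm 95 of 268 held reads, in the distal long arm 105 of 568.

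Of the 266 protein-coding genes of the chromosome 153 held reads (57.5%). SMAD2, a signal transducer of TGF-beta and activin, was the only one of 5 heme and erythroid genes with reads, with 19, 13, 334 and 350, and rose by 4.88 on the log2 scale (SE 0.26, edgeR adjusted p = 7.12e-04). FECH, which inserts iron into protoporphyrin to form heme, RIOK3, SMAD4 and SMAD7 held none in regions that met 1 gene only. That allows up to 3 such reads per library each, and reads in regions that also met another gene were not counted. Of the growth, death and leukemia genes 7 of 11 held reads, and of the 6 tested 3 fell and 1 rose. The list median was -5.71 on the log2 scale (-4.31 with genes at 0 held at their bound), and that of the tested genes of chromosome 18 was -0.07. BCL2 and YES1 passed the count filter through the untreated libraries alone and had to fall. Other lists also hold genes at 0 in 1 group, so the list medians here and below are descriptions that support nothing. The medians of the other lists were the same with genes at 0 at their bound. BCL2, the inhibitor of apoptosis (chr18:63123346-63320128), had 7064, 7808, 0 and 0 reads, at least 1773-fold lower after hemin. SETBP1 had 1718, 1897, 0 and 5 reads and YES1, a Src family kinase, 289, 308, 0 and 0. ROCK1, a kinase downstream of RhoA with a related pseudogene on the short arm, had 598, 630, 554 and 601 reads and rose by 0.39 for its depth (SE 0.05, edgeR adjusted p = 0.00569). SS18, a subunit of BAF chromatin remodelers, had 1595, 1589, 1038 and 1252 reads and a log2 change of 0.00.

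Of the 14 genes of chromatin and transcription 9 held reads, and of the 8 tested 4 rose and 3 fell, with a list median of 2.24. ZNF521 had a log2 change of -0.20 (SE 0.04, edgeR adjusted p = 0.0163), a call that was lost with RLE size factors (-0.14), with the total outside the acrocentric chromosomes (-0.09) and without either untreated library (-0.22 each). TCF4, a basic helix-loop-helix factor, had 0, 0, 459 and 913 reads, and rose at least 316-fold, and ZNF407 had 4 and 0 reads in untreated cells and 1293 in hemin replicate 2. The log2 change of ZNF407 was 9.65 (SE 0.92), and it was 13.46 without untreated replicate 1 and 8.65 without untreated replicate 2. ZNF236 had 2802, 3118, 251 and 289 and fell by 2.97. ASXL3, a Polycomb-associated gene, had 2778, 2831, 3223 and 3099 reads and rose by 0.66, although its strongest region differed between the groups. In untreated replicate 1 it was at 33718534 to 33718623, with 1209 reads, and in hemin replicate 1 at 33623057 to 33623160, with 2488 reads.

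Among the 11 cadherins 7 held reads, and 4 rose and 3 fell, with a list median of 1.43. The neighbouring desmosomal genes with reads were read mostly in different groups. DSC3, DSG1 and DSG2 were read only after hemin, and rose at least 141-fold, 144-fold and 18.3-fold, while DSC2 had 797, 886, 14 and 0 and fell by 6.38. The first 3 passed the count filter through the hemin libraries alone and had to rise, so the opposite directions support nothing. CDH2, N-cadherin, had 1837, 1866, 791 and 796 reads and fell by 0.74 (SE 0.06). CDH7 held 1 region per library, but at 65851580 to 65851689 in untreated replicate 1 and at 65791621 to 65791713 in hemin replicate 1. Of 10 serpins in the distal long arm 3 held reads and 1 was tested, SERPINB7, with 417, 468, 0 and 7 reads, which fell by 6.47. The calls of DSC2 and SERPINB7 were lost without either untreated library, and that of DSG2 without either hemin library.

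Of the genes of neurons and cell adhesion 15 of 15 held reads, beside 57.5% of all protein-coding genes. These genes are long, with a median of 323 kb against 54 kb over the protein-coding genes of the chromosome, and the part of length in the count was not tested. Of the 14 tested 4 rose and 7 fell, with a list median of -0.30. DLGAP1, a scaffold of the postsynaptic density on the short arm, had 7190, 7570, 1988 and 2792 reads and fell by 1.15 (SE 0.16), a call lost without either untreated library. L3MBTL4, also on the short arm, had 6057, 6377, 1706 and 1899 reads and fell by 1.31 (SE 0.04). NOL4, a nucleolar protein gene, had 4825, 5090, 2039 and 2291 and fell by 0.72. DCC, the netrin receptor in the distal long arm, had 1003, 1003, 1472 and 1667 reads from 15, 14, 18 and 16 regions and rose by 1.13 (SE 0.06, edgeR adjusted p = 7.94e-04). CCBE1 had reads only after hemin, 209 and 232. PTPRM had 3171, 3622, 2525 and 2676 reads and a log2 change of 0.10 (edgeR adjusted p = 0.233).

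Beyond the lists, the called genes with reads in every library and the lowest log2 changes were GALNT1 (-6.08), ZNF271P (-5.55), MBP (-3.30), LINC01543 (-3.04) and ZNF236. GALNT1, which starts mucin-type O-glycosylation, had 1709, 1710, 15 and 21 reads. The highest were CBLN2 (2 and 2 untreated reads against 269 and 282 after hemin), TRAPPC8 (5.54), MYOM1 (5.24), PSTPIP2 (5.22) and SMAD2. MYOM1, a sarcomere M-band protein gene, had 44, 27, 914 and 1019 reads. TRAPPC8, of the TRAPP trafficking complex, had 7, 57, 953 and 1165. The calls of TRAPPC8 and PSTPIP2 were lost without either hemin library. CBLN2 passed the count filter through the hemin libraries alone. These genes were picked for their extreme changes, so their separation is a description. Among genes at 0 in both untreated libraries, the lncRNA genes ENSG00000287693 (1433 and 1448 reads after hemin) and ENSG00000264015 (942 and 901) and AFG3L2, a mitochondrial protease gene (825 and 834), had the most reads. Among genes at 0 in both hemin libraries these were BCL2, the centrosomal CEP192 (1770 and 1730 reads in untreated cells) and LINC01900 (1636 and 1609). AFG3L2 and CEP192 both lie on the short arm and were on opposite sides.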

How the data were processed

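4C libraries of untreated K562 cells (n = 2) and cells kept with hemin (n = 2) were analysed. Per the labels and methods, the authors trimmed reads with cutadapt 3.5, aligned them to hg38 (GRCh38.p12 in the labels) with BWA 0.7.17-r1188, dropped unmapped reads with SAMtools 1.14 and merged covered stretches with bedtools 2.29.1. No filter on mapping quality or repeated matches is given. The deposited replicate files give each region with its raw read count. The deposited repeat-filtered files, 1 per group, give a signal per region and were used as an alternative only.

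Regions were assigned by their middle to 1 Mb bins, and genes came from GENCODE release 44. Read counts per bin, contact place and gene, and regions per bin, were tested genome-wide with edgeR 4.0.16 (TMM scaling, filterByExpr, quasi-likelihood test, Benjamini-Hochberg adjustment) in R 4.3.3, with DESeq2 1.42.0 as an alternative. The SE of an edgeR log2 change was derived from the test, as the absolute change divided by the square root of its F statistic. Shares and ratios were compared by two-sided exact permutation tests in Python 3.11.15 with SciPy 1.17.1. The fits were tested on simulated data, in which edgeR recovered 100% of 200 bins changed by 4-fold (reads), 100% (regions), 85.5% of 200 places and 35.5% of 200 genes. It called 0.188%, 0.296%, 0.0174% and 0.0928% of the unchanged features. DESeq2 recovered 100%, 100%, 87% and 73% and called 2.55%, 0%, 0.105% and 1.15% of the unchanged ones. Unchanged features had the same mean in both groups and 1 dispersion per table. Features at 0 in 1 group were thus not covered. Copies of the middle 31 bases were counted on both strands of hg38. The library totals of 19405694 to 33698762 reads set the counting error. Intervals and limits cover that error only, and not the error of ligation or amplification.

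Named were the members with reads of 6 gene lists (heme and erythroid; growth, death and leukemia; chromatin and transcription; cadherins; serpins; neuronal and adhesion), the 5 highest and 5 lowest log2 changes among called genes with reads in every library, a mean scaled count of at least 100 and groups that did not overlap, the 3 strongest genes at 0 in each group and the 3 with the highest mean. For places these were the 5 strongest in the arms, the 3 in the pericentromere, the 3 at 0 in each group and the 3 with at least 10 reads in all libraries. For bins these were the 5 with the most regions, the 3 gene-dense bins with the most coding genes and the 3 most extreme called changes in each direction. The members and lists were chosen with earlier results of these data known. Alternatives were other scalings, filters, bin sizes, tools and pericentromere bounds, a replicate block, thinned reads, and each library left out. One-copy regions, the values within segments and the omission of the 25 to 26 Mb bin were added after the data were seen.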

Additional observations from a re-analysis of the deposited data

Results flagged for a closer look

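Reads were also present within 500 kb of the short-arm end of chromosome 18, which the comparisons left out. They numbered 29352 and 32337 in untreated replicates 1 and 2 and 14562 and 15259 in hemin replicates 1 and 2, from 36, 39, 22 and 25 regions. Regions with more than 1 copy of their middle sequence held 92.3%, 58.6%, 54.9% and 51.4% of these reads. The strongest region of untreated replicate 1 (chr18:110800-111088) held 18508 reads, and that of hemin replicate 1 (chr18:110933-111123) held 6273. The part of these copies in the reads was not tested.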

How the results depend on the processing

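The hemin minus untreated difference in the chr18 share of regions was -1.79 percentage points with at least 10 reads per region, -1.92 in one-copy regions, -2.73 in repeat-filtered regions and -0.756 over all chromosomes. For the chr18 share of reads it was -1.21 in one-copy and -1.17 in repeat-filtered regions, and it turned to 0.00146 over all chromosomes. The difference in the chr18 gene-poor to gene-dense ratio of regions turned to 0.00106 in repeat-filtered regions, 0.0478 without the 25 to 26 Mb bin, 0.0349 within the proximal and 0.00994 within the distal long arm, and was -0.238 within the short arm. For the chr18 gene-poor to gene-dense ratio of reads it was 0.311 in repeat-filtered regions, 0.220 without that bin, 0.434 within the distal long arm and 0.222 with 500 kb bins, and turned to -0.525 within the short arm. The difference in the chr18 pericentromere share of regions was -3.57 with at least 10 reads per region, -8.46 with thinned reads and -14.3 in repeat-filtered regions, and turned to 0.0587 in one-copy regions. For the chr18 pericentromere share of reads it was 2.15 in repeat-filtered regions and 1.39 from 15 to 21 Mb, and turned to -0.150 in one-copy regions. Leaving out 1 library gave -1.42 to -1.15 and -0.330 to -0.248 for the shares of regions and reads, -0.0643 to -0.0198 and 0.0951 to 0.170 for the ratios, and -12.2 to -9.52 and 0.725 to 1.15 for the pericentromere.

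The chr18 1 Mb bins called, reads, numbered 126 of 156 tested with 500 kb bins. Genome-wide 2158 of 5580 such bins were higher and 2138 lower. The chr18 1 Mb bins called, regions, numbered 7 of 49 tested with DESeq2, beside 9 higher and 62 lower of 826 genome-wide. At an adjusted p under 0.01 they numbered 16 of 69, beside 102 higher and 156 lower of 1799 genome-wide. The chr18 genes called numbered 349 when every gene met by a region was counted and 168 to 188 without 1 library, and the chr18 contact places called 1672 to 2342. Replicate numbers did not pair the libraries (correlations of deviations between -0.047 and 0.007). With them as a replicate block, edgeR called 0 of 2538 tested contact places on chromosome 18, with 1027 at an unadjusted p under 0.05. It called 28 of 239 tested genes there. Genome-wide the block fit called 0 of 42604 places, and 285 genes higher and 339 lower of 7287. DESeq2 without the block called 2643 of 3555 places on chromosome 18.

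Among named items, SS18, genes, log2 fold change, turned to -0.01 without a count filter, 0.00 with the block, and ranged from -0.09 to 0.08 without 1 library. With every gene met, PTPRM, genes, log2 fold change, was -0.08, CELF4, genes, log2 fold change, 0.00 and DTNA, genes, log2 fold change, -0.64. The place7, places, log2 fold change, was -3.33 with the block and ranged from -12.99 (without hemin replicate 1) to 1.53 without 1 library. The bin12, bins regions, log2 fold change, was 0.10 with the total outside acrocentric chromosomes and ranged from -0.22 to 0.02 without 1 library, and the bin24, bins reads, log2 fold change, was 0.13 with that total. The cause was not tested. Depth limits genes without reads, for which 0 allows up to 3 reads per library in regions that met the gene alone. Thinning to equal depth moved the pericentromere share of regions as given above.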
